A study of Mus musculus with 14 samples.

Results

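Skeletal muscle genes were followed in whole mouse eyes, array by array. The muscles that move the eye may stay attached to it in varying amounts when it is taken out, and the amount attached was not measured. The list held 40 genes of the contractile apparatus, its calcium supply, its nerve contact and its transcription factors. Of these, 39 had a probe set annotated to that gene alone, and where a gene had several, the brightest on average over the 14 arrays was used. Neb, which encodes the giant thin filament protein nebulin, had none. The array measured 12393 genes in this way. The genes were listed by function and not by their values in any one comparison, although the list was drawn up with earlier results of these data known.

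Whole eyes were enucleated at postnatal day 1 and 50 ng of total RNA was amplified and labelled with biotin for each single-colour array. The Snf2h experiment held 4 wildtype and 4 Snf2h lens-conditional knockout (cKO) samples of newborn C57BL/6 mice, and the Brg1 experiment held 3 wildtype and 3 Brg1 cKO samples of P1 mice on a mixed background. Snf2h (gene Smarca5) and Brg1 (gene Smarca4) are the ATPases of ISWI and SWI/SNF chromatin remodelling complexes. The labels name the lens as the deleted tissue for Snf2h, name neither the deleting allele nor its promoter, and do not name the tissue that lost Brg1. They do not say which animals the Brg1 samples came from, so p-values measure the spread between these samples, which may be technical in part. Precision is limited by the small number of arrays. The sample titles name eyeball RNA and not the number of eyes in a sample, so a numbered eye below means the sample of that number.

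Skeletal muscle contracts when myosin thick filaments pull on actin thin filaments inside sarcomeres, which are anchored at Z discs. A nerve opens acetylcholine receptors on the fibre, calcium leaves the sarcoplasmic reticulum, and calcium bound to the troponin complex lets myosin engage actin. Around birth, mammalian muscle replaces fetal versions of several of these proteins with adult ones, and fibres take on slow or fast versions. The muscles around the eye are known for keeping fetal myosins and the fetal acetylcholine receptor into adult life.

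Arrays that stood apart bear on the values below. In Snf2h wildtype 3 the log2 difference between the 3' and the 5' control probe sets of Gapdh was 4.47, against 0.63 to 1.46 on the other 13 arrays. That array also had the highest mean level of 8 cornified skin genes, 7.01 on the log2 scale. Snf2h wildtype 1, 2 and 4 gave Gapdh differences of 1.31, 1.46 and 1.09. Snf2h cKO 1 to 4 gave 0.97, 0.84, 0.77 and 0.99, all below every wildtype array of that experiment. For Actb the same measure overlapped (1.44 to 3.08 in Snf2h wildtype and 1.34 to 1.83 in Snf2h cKO). The part of this measure in the Snf2h changes below was not tested. Snf2h cKO 1 and Snf2h cKO 2 were near-identical, since the SD of their log2 difference over all genes was 0.205, against 0.401 to 0.723 for the remaining 17 pairs within groups. The probe sets representing the deleted genes gave overlapping levels between knockout and wildtype in these whole eyes (Smarca5 8.52 to 9.73 in Snf2h cKO and 9.34 to 9.82 in wildtype, Smarca4 8.71 to 9.41 in Brg1 cKO and 8.91 to 9.16 in wildtype), and whether they lie in deleted exons is not known here.

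Muscle genes were bright on every array. Their mean log2 levels ranged from 3.90 for Chrnd, which encodes a receptor subunit, to 12.08 for Tnnc2, the fast troponin C, and 35 of 39 lay above the level of 6.87 used to mark dim probe sets. That level is the median over probe sets and not a limit of detection. The 6 heart muscle markers measured all had means below it. Among them Myh6 lay between 2.32 and 5.02, while Tnni3, with a mean of 6.77 just under the level, lay between 5.44 and 7.88. The summed intensity of the 39 genes made up 0.53% to 0.80% of that of all genes in Snf2h wildtype eyes and 0.67% to 0.80% in Snf2h cKO eyes. In the Brg1 experiment it made up 0.58%, 0.61% and 1.0% in wildtype eyes 1 to 3. The knockout eyes of that experiment gave 0.46%, 1.24% and 0.99%. The highest and the lowest share of all 14 arrays were therefore both in the Brg1 cKO group. A share of summed intensity is not a share of RNA, since probe sets differ in brightness, and in whole eyes fewer muscle cells and less of these transcripts per cell cannot be told apart.

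The muscle level of an array was taken as the mean over the 39 genes of the log2 intensity minus the mean of the wildtype arrays of the same experiment. It was 0.37, −0.29, −0.14 and 0.05 in Snf2h wildtype eyes 1 to 4. Snf2h cKO eyes 1 to 4 gave 0.00, −0.04, −0.09 and 0.25, all inside the wildtype range. In Brg1 wildtype eyes the level was −0.37, −0.27 and 0.64. Brg1 cKO eyes gave −0.64, 1.10 and 0.43, so the knockout eyes lay on both sides of the wildtype eyes. Eyes of 1 genotype differed more than the groups did: the group means were 0.03 ± 0.15 (SD, n = 4) for Snf2h cKO and 0.30 ± 0.88 (SD, n = 3) for Brg1 cKO, against 0 ± 0.28 (SD, n = 4) and 0 ± 0.56 (SD, n = 3) for their wildtypes.

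**Figure D1:**
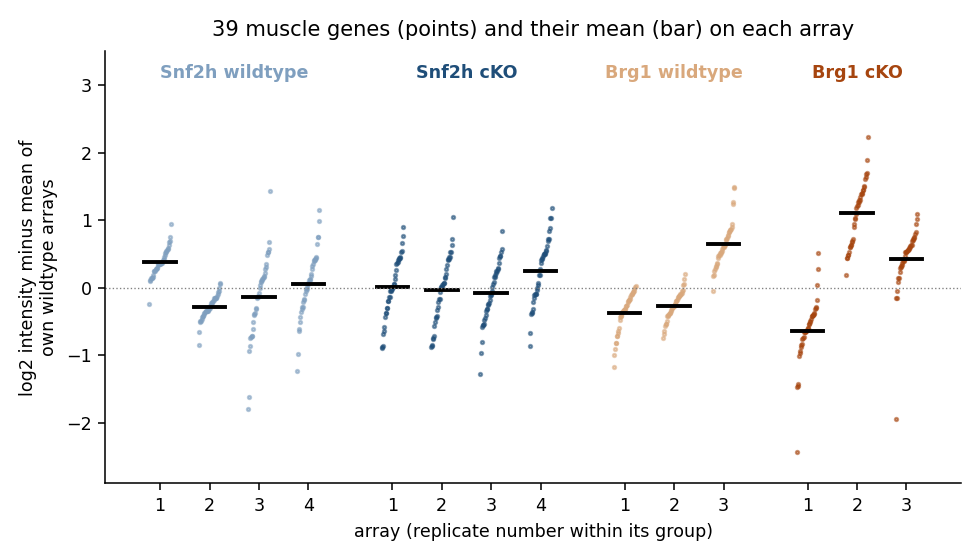
Log2 intensity of 39 muscle genes on each of 14 arrays, minus the mean of the wildtype arrays of the same experiment. Each point is a gene, each black bar the mean of the 39 genes, and the horizontal axis gives the replicate number within its group; the Brg1 cKO arrays have means of −0.64, 1.10 and 0.43.

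The genes varied together between eyes of the same group. All 39 were higher in Brg1 cKO 2 than in Brg1 cKO 1, by a median of 3.25-fold, while the median gene of the whole array differed by −0.04 on the log2 scale and 46.6% of all genes were higher. The smallest difference was 1.87-fold for Tnnt2, the fetal and cardiac troponin T, and the largest was 7.25-fold for Myh1, an adult fast myosin heavy chain. Tnni1 (slow troponin I) differed 6.42-fold, Chrna1 6.27-fold, Chrng 6.15-fold and Myog 5.65-fold between these eyes. Brg1 wildtype 3 exceeded Brg1 wildtype 1 in 38 of 39 genes, by a median of 2.0-fold, with Myod1 the exception. Snf2h wildtype 1 exceeded Snf2h wildtype 2 in 38 of 39, by a median of 1.56-fold, with Chrnd the exception. The arrays in these comparisons were picked for their muscle level, so the counts are descriptions.

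Within groups, the pooled SD of a muscle gene was 0.60 on the log2 scale (median of 39), against 0.28 for the median of all genes, and all 39 lay above that value. The group of Brg1 cKO eyes had the widest spread, with a median SD of 0.87 and a range of 0.45 to 1.45. Snf2h cKO eyes had the narrowest, with a median SD of 0.22, in a group that holds the near-identical pair of arrays. Snf2h wildtype 3 and 4 departed from the common pattern in opposite directions for Myl4 and Myh1. Against the median muscle gene of the same array, both centred on wildtype, Myl4 stood at −1.71 in wildtype 3 and 1.09 in wildtype 4. Myh1 stood at 1.51 and −1.30. Compared with wildtype 4, wildtype 3 was lower by 2.95 for Myl4 and higher by 2.67 for Myh1 on the log2 scale. Wildtype 3 was the array with the large Gapdh difference, whose part in these values was not tested.

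**Figure D2:**
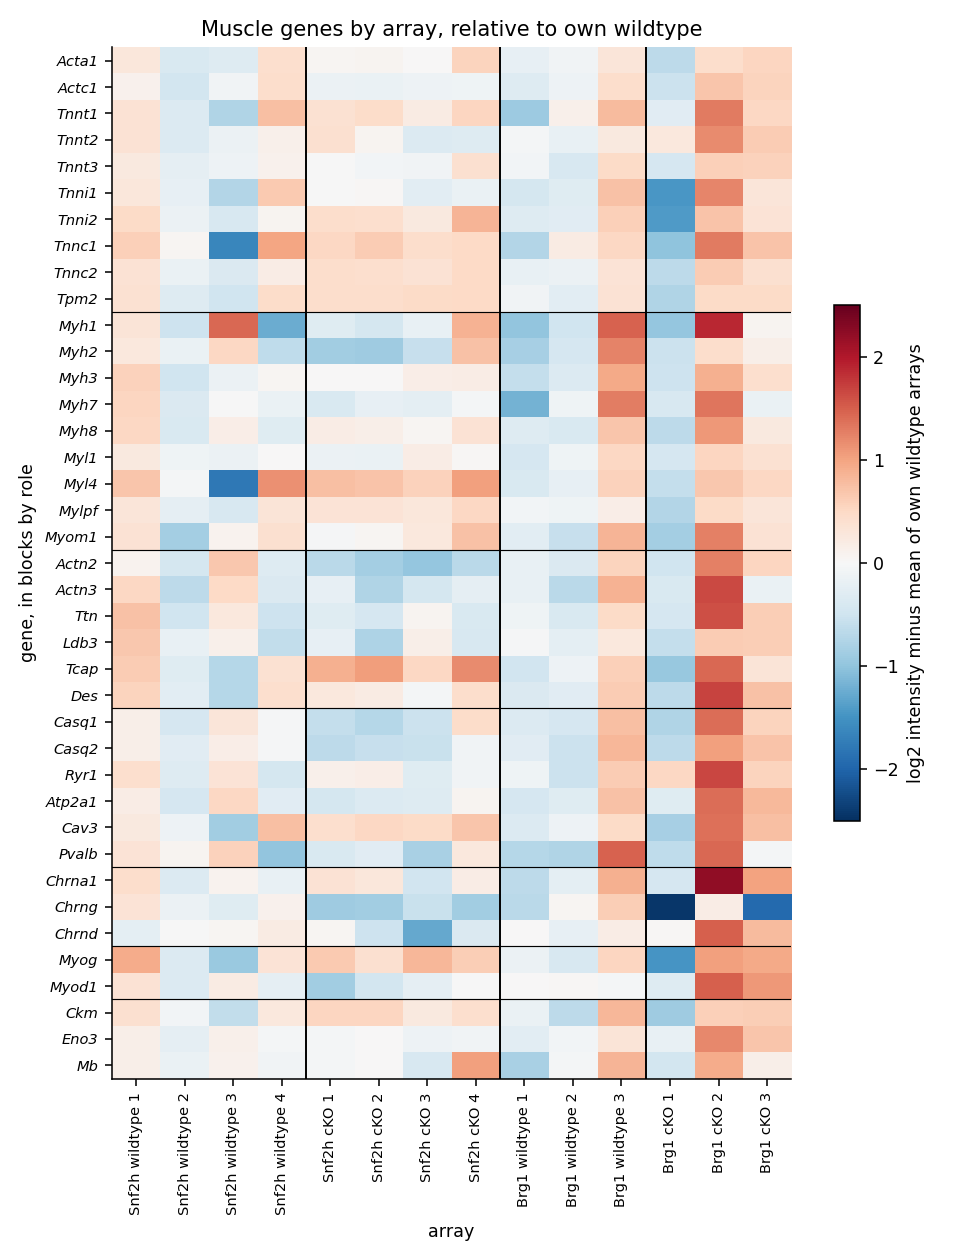
Log2 intensity of each muscle gene (rows, in blocks by role) on each array (columns, in 4 groups separated by vertical lines), minus the mean of the wildtype arrays of the same experiment, with red above and blue below wildtype and colours saturating at 2.5. Brg1 cKO 2 is above wildtype in all 39 genes and Brg1 cKO 1 below it in all but 3, while Chrng is blue in 6 of the 7 knockout arrays and near 0 in Brg1 cKO 2.

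In Snf2h cKO eyes, 0 of 39 muscle genes passed limma's test at an adjusted p of 0.05 over all genes, where 0.0161% of all genes did. At an unadjusted p under 0.05, 3 were higher and 3 lower, and of all genes 8.31% were higher and 8.62% lower. The groups did not overlap for 3 muscle genes, with Tnnc2 higher in cKO eyes (5.5% of all genes were) and Chrng and Actn2 lower (4.81% of all genes). The median change of the 39 genes was −0.01 on the log2 scale, with 19 above 0 (43.5% of all genes were), and that of all genes was −0.05. These p-values count the near-identical Snf2h cKO 1 and 2 as separate samples. The Gapdh difference between 3' and 5' probe sets separated the same 2 groups, and the fits did not take it into account.

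Brg1 cKO eyes gave 0 of 39 at an adjusted p of 0.05 by limma as well, where 1.09% of all genes passed. At an unadjusted p under 0.05, 1 muscle gene was higher and 0 were lower, against 5.45% and 3.77% of all genes. The groups did not overlap for 1 muscle gene, Tnnt2, which was higher in cKO eyes (8.28% of all genes were higher and 6.25% lower in this way). The median change was 0.26 on the log2 scale, with 37 of 39 genes above 0 (52.8% of all genes were), and all genes had a median of 0.02. The 37 are not independent, since the genes moved together: without Brg1 cKO 2 the median was −0.06, and without Brg1 cKO 1 it was 0.76. Without Brg1 cKO 1 the change of Myod1 passed limma's test (1.29, adjusted p = 0.0378), and without Brg1 cKO 2 that of Chrng passed (−2.19, adjusted p = 0.0448).

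The difference between the knockout effects, Brg1 minus Snf2h, was tested as an interaction over all 14 arrays. It passed limma's adjusted test for 0 of 39 muscle genes, where 0.928% of all genes passed. At an unadjusted p under 0.05 there were 3 muscle genes with a positive difference (the Brg1 change above the Snf2h change, signs included) and 0 with a negative one, against 7.46% and 4.58% of all genes, and 27 of the 39 differences were above 0 (56.4% of all genes). Those 3 were Chrnd (difference 1.30 ± 0.45 SE, adjusted p = 0.256 by limma), Actn2 (1.23 ± 0.51 SE, adjusted p = 0.361) and Myod1 (1.14 ± 0.49 SE, adjusted p = 0.369). Tnnt2 followed with 0.74 ± 0.35. In the other direction the smallest p belonged to Tnni2 (−0.61 ± 0.58), Mylpf (−0.36 ± 0.37), Tcap (−0.64 ± 0.65) and Tpm2 (−0.39 ± 0.43), each smaller than or about the size of its SE. Without Brg1 cKO 1 the difference for Myod1 passed (1.68, adjusted p = 0.0247 by limma), and those for Tnni2, Mylpf and Tpm2 were 0.037, 0.017 and 0.019.

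**Figure D3:**
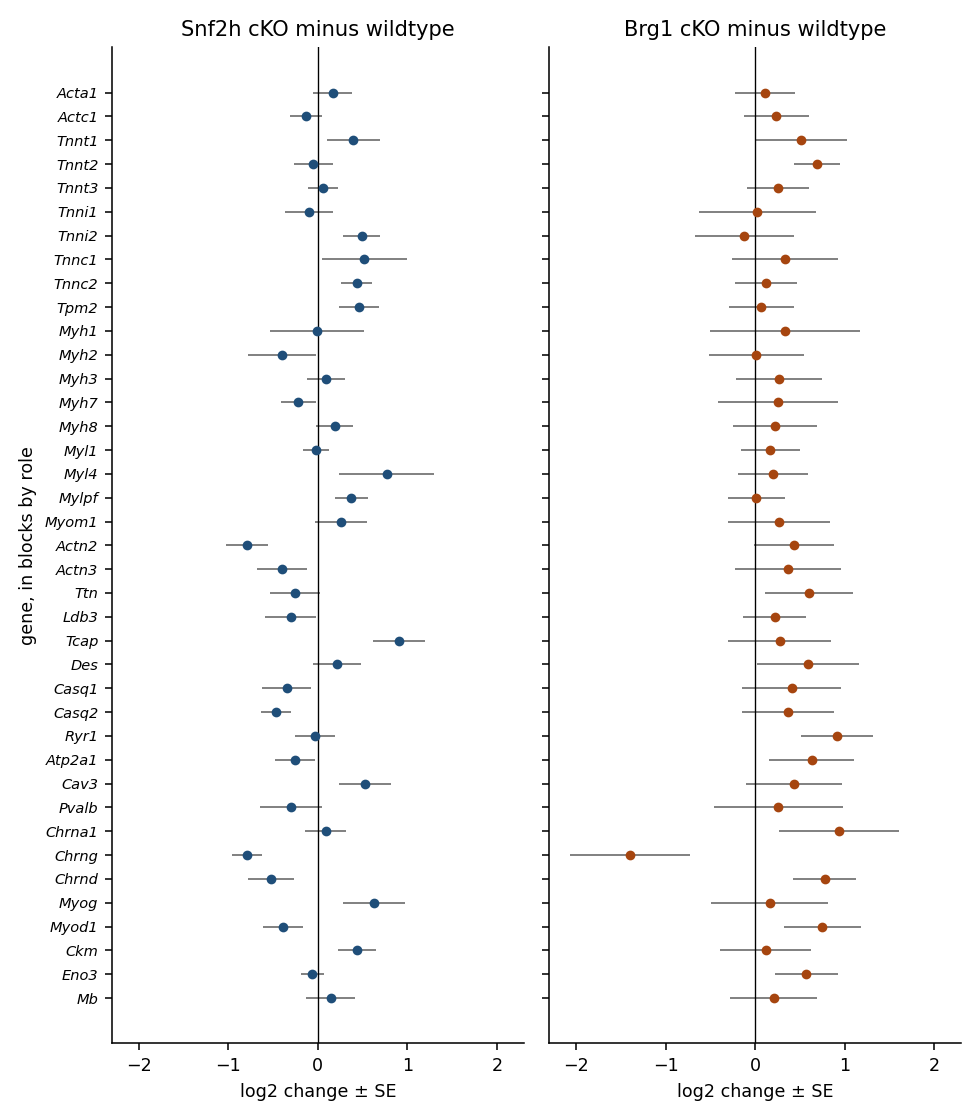
Log2 change (knockout minus wildtype of the same experiment, horizontal axis) with limma's standard error for each of 39 muscle genes, Snf2h cKO on the left (4 against 4 arrays) and Brg1 cKO on the right (3 against 3). None of the changes passed the adjusted test; Chrng is at −0.80 and −1.40, and the error bar of Chrng is wider on the right, with an SE of 0.67 against 0.17.

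Among the genes of the muscle acetylcholine receptor, Chrng was lower in knockout than in wildtype eyes on average in both experiments. The gamma subunit, which it encodes, belongs to the fetal receptor and is replaced by the epsilon subunit in most adult muscle, while the alpha subunit, encoded by Chrna1, binds acetylcholine in both forms. The promoters of this pair are shown because the difference between the genes separated knockout from wildtype eyes in the Brg1 experiment, while the groups overlapped in the Snf2h experiment. Both are RefSeq sequences of the mouse build GRCm38.p6 running from 250 bases before to 50 after the start of the gene, and capitals mark E boxes (CANNTG), the sites bound by MyoD, myogenin and related factors. The Chrng window lies at chr1:87205561-87205860 on the + strand and the Chrna1 window at chr2:73580289-73580588 on the − strand.
Chrng: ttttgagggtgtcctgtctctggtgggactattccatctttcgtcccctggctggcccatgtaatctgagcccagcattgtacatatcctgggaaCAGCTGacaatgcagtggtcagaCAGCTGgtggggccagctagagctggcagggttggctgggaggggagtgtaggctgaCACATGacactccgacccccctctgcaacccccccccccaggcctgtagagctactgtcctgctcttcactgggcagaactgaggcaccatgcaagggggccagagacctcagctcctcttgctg
Chrna1: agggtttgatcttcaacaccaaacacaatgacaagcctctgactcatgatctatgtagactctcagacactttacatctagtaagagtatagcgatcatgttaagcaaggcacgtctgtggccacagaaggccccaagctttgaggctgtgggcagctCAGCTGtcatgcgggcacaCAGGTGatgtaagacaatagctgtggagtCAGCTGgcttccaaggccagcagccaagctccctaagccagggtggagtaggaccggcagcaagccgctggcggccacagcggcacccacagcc
Each window holds 3 E boxes, 2 of them of the form CAGCTG. The CAGCTG match nearest the start begins 132 bases before it in Chrng and 44 bases before it in Chrna1. A match is a description of the letters and not of binding.

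Chrng read 8.53, 8.03, 7.88 and 8.29 on the log2 scale in Snf2h wildtype eyes 1 to 4. Snf2h cKO eyes gave 7.29, 7.31, 7.63 and 7.32, all below every wildtype eye. The change was −0.80 ± 0.17 (SE), 1.74-fold lower, with the smallest p of any muscle gene (adjusted p = 0.150 by limma over all genes), and it did not pass. The adjusted p ranged from 0.0300 to 0.412 over the other settings, and it passed with array weights.

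In the Brg1 experiment Chrng read 6.93, 7.64 and 8.22 in wildtype eyes. Brg1 cKO eyes gave 5.17, 7.79 and 5.65. Eyes 1 and 3 lay below all wildtype eyes, and eye 2, the one with the most muscle signal, lay among them, for a change of −1.40 ± 0.67 (SE, adjusted p = 0.616 by limma). Against the median muscle gene of the same array, Chrng was lower in all 3 knockout eyes than in any wildtype eye (−1.83, −1.02 and −2.48 in cKO 1 to 3, and −0.34, 0.32 and 0.02 in wildtype 1 to 3). A second Chrng probe set, dimmer at a mean log2 level of 4.67, gave −1.63 ± 0.50 in Brg1 cKO and −0.24 ± 0.36 in Snf2h cKO eyes. The third, at 2.63, gave −0.08 ± 0.21 and −0.52 ± 0.18.

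Chrna1 did not share this. It read 7.29, 6.49, 6.93 and 6.66 in Snf2h wildtype eyes and 7.20, 7.12, 6.36 and 7.03 in Snf2h cKO eyes, and the groups overlapped. Brg1 wildtype eyes gave 6.19, 6.60 and 7.73, and Brg1 cKO eyes 6.42, 9.07 and 7.85, the order of their muscle levels. Against the median muscle gene of the same array, Chrna1 stood at 0.18, 1.02 and 0.48 in Brg1 cKO eyes. Its wildtype values on that scale were −0.33, 0.03 and 0.29, and the groups overlapped. A higher Chrna1 therefore enters the difference between the genes as well as a lower Chrng. In cKO 2 the 2 parts were of similar size, at 1.02 and −1.02. The difference Chrng minus Chrna1, centred on wildtype, was −2.01, −2.04 and −2.96 in Brg1 cKO eyes, against −0.02, 0.29 and −0.27 in wildtype. In Snf2h cKO eyes it was −1.25, −1.15, −0.07 and −1.05, against −0.10, 0.20, −0.39 and 0.30 in wildtype, so cKO 3 lay within the wildtype range and the other 3 below it.

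Lens genes also differed in these arrays. The mean of 7 lens fibre genes, relative to wildtype, was −3.26, −1.55 and −4.02 in Brg1 cKO eyes 1 to 3. It was −1.07, −1.11, −0.10 and −0.05 in Snf2h cKO eyes 1 to 4. Chrng minus Chrna1 in the same order was −2.01, −2.04 and −2.96 in Brg1 cKO eyes and −1.25, −1.15, −0.07 and −1.05 in Snf2h cKO eyes. Over 10 macrophage and neutrophil genes the mean was 1.30, 2.58 and 1.63 in Brg1 cKO eyes. The part of these tissues in the Chrng values was not tested.

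The delta subunit gene Chrnd was the dimmest of the 39. Snf2h wildtype eyes read 4.0, 4.24, 4.29 and 4.45 and Snf2h cKO eyes 4.30, 3.73, 2.97 and 3.88, a change of −0.53 ± 0.26 (SE, adjusted p = 0.323 by limma). Brg1 wildtype eyes read 3.42, 3.21 and 3.59 and Brg1 cKO eyes 3.44, 4.91 and 4.20, a change of 0.78 ± 0.35 (SE, adjusted p = 0.581 by limma). The groups overlapped in both experiments.

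**Figure D4:**
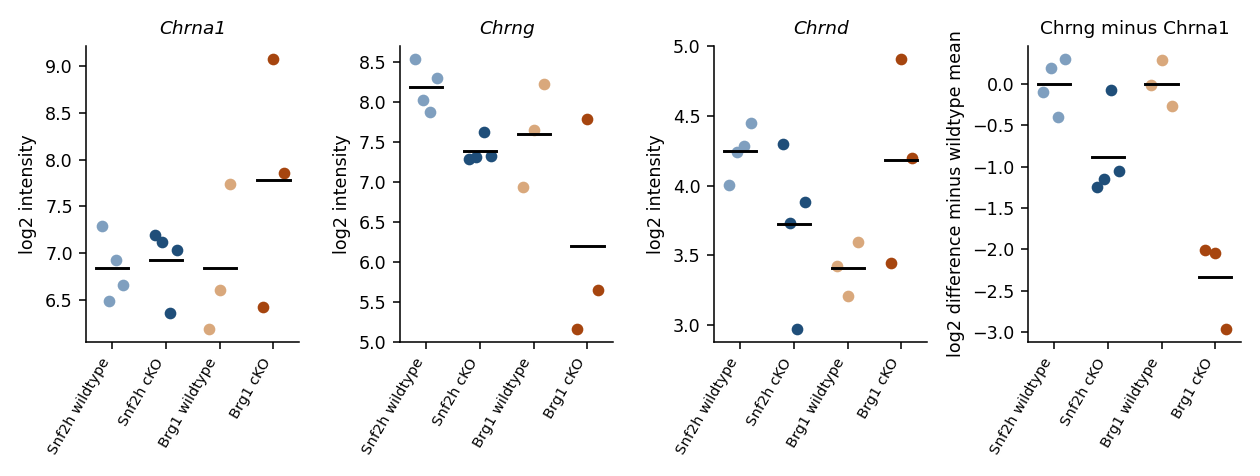
Log2 intensity of 3 acetylcholine receptor subunit genes on each array, and the difference Chrng minus Chrna1 centred on the wildtype mean of each experiment, by group (points are arrays, bars are group means, 4 arrays in each Snf2h group and 3 in each Brg1 group). The difference lies between −2.01 and −2.96 in Brg1 cKO and between −0.27 and 0.29 in its wildtype.

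Among thin filament genes, the troponins gave the lowest p-values. Tnnc2, which encodes the calcium-binding subunit of fast troponin, read 12.17, 11.65, 11.44 and 11.99 in Snf2h wildtype eyes. Snf2h cKO eyes gave 12.26, 12.24, 12.17 and 12.31, and the lowest of them lay just above the highest wildtype value. The change was 0.43 ± 0.17 (SE, adjusted p = 0.257 by limma), 1.35-fold. In Brg1 cKO eyes it was 0.12 ± 0.35, with readings of 11.44, 12.72 and 12.48 around the wildtype 11.91, 11.94 and 12.44.

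Tnni2, the fast troponin I that holds the filament off without calcium, read 11.60, 10.96, 10.72 and 11.18 in Snf2h wildtype eyes. It read 11.56, 11.54, 11.36 and 11.96 in Snf2h cKO eyes, a change of 0.49 ± 0.21 (SE, adjusted p = 0.278 by limma) with overlapping groups. In the Brg1 experiment it read 11.07, 11.12 and 12.00 in wildtype and 9.98, 12.11 and 11.74 in cKO eyes, a change of −0.12 ± 0.55 (SE, adjusted p = 0.969 by limma). That sign came from eye 1: without Brg1 cKO 1 the change was 0.53. Tnni1, the slow form, read 8.62, 8.13, 7.60 and 8.98 in Snf2h wildtype and 8.31, 8.37, 8.07 and 8.17 in Snf2h cKO eyes. Tnni1 minus Tnni2, centred on wildtype, was −0.46, −0.39, −0.51 and −1.0 in Snf2h cKO eyes and −0.20, −0.05, −0.34 and 0.59 in wildtype. All 4 knockout eyes lay below the wildtype eyes, although −0.39 in cKO 2 was close to −0.34 in wildtype 3. In Brg1 cKO eyes this difference was −0.03, 0.51 and −0.04, and the groups overlapped. The other slow minus fast pairs overlapped in the Snf2h experiment. Their knockout means were 0.34 (Tnnt1 minus Tnnt3), 0.09 (Tnnc1 minus Tnnc2), 0.18 (Myh7 minus Myh2) and −0.12 (Casq2 minus Casq1). Against the median muscle gene of the same array, Tnni2 stood at 0.34 to 0.47 in Snf2h cKO eyes (−0.31 to 0.15 in wildtype) and at −0.82, −0.49 and −0.19 in Brg1 cKO eyes (−0.0056 to 0 in wildtype). The groups did not overlap for Tnni2 on this scale in either experiment, with opposite directions. In Snf2h cKO eyes 2 muscle genes were higher in this way (Tnni2 and Tcap) and 3 lower (Actn2, Casq2 and Chrng). In Brg1 cKO eyes 1 was higher (Atp2a1) and 2 lower (Tnni2 and Chrng). The share of all genes was not computed on this scale. Tnni2 was itself the median gene in Brg1 wildtype 3, where its value is 0.

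Tpm2 encodes beta-tropomyosin, which lies along actin, and its probe sets disagreed. The brightest read 11.16, 10.46, 10.27 and 11.23 in Snf2h wildtype and 11.22, 11.23, 11.25 and 11.28 in Snf2h cKO eyes (change 0.46 ± 0.22 SE, adjusted p = 0.316 by limma). The other 3 gave −0.34, −0.55 and −0.19, and the mean of all 4 gave −0.15. Tnnt2 read 8.14, 8.0 and 8.43 in Brg1 wildtype and 8.46, 9.36 and 8.82 in Brg1 cKO eyes. It was the muscle gene with the smallest p in that experiment (change 0.69 ± 0.26 SE, adjusted p = 0.435 by limma), and even cKO 1, the eye with the lowest muscle level, lay just above all wildtype eyes. A second Tnnt2 probe set gave 0.62 ± 0.31. In Snf2h cKO eyes Tnnt2 differed from wildtype by −0.05 ± 0.22, and Tnnt3, the fast form, by 0.06 ± 0.17.

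Tnnt2 minus Tnnt3, fetal minus adult, was 0.69, 0.58 and 0.05 in Brg1 cKO eyes and 0.02, 0.22 and −0.24 in wildtype eyes, and the groups overlapped. Tnnt1 minus Tnnt3, slow minus fast, overlapped in both experiments, as did Tnnc1 minus Tnnc2. Tnnc1, the slow and cardiac troponin C, read 8.55 in Snf2h wildtype 3 and 10.23 to 11.17 on the other 7 arrays of that experiment.

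The actins form the thin filament itself. Acta1 encodes the skeletal form and Actc1 the cardiac form, which fetal skeletal muscle also makes. Their promoters are shown because the genes were bright in all eyes and both windows hold a CArG box, the site bound by serum response factor, marked in capitals. The Acta1 window lies at chr8:123894726-123895025 and the Actc1 window at chr2:114052826-114053125, both on the − strand of GRCm38.p6 (RefSeq).
Acta1: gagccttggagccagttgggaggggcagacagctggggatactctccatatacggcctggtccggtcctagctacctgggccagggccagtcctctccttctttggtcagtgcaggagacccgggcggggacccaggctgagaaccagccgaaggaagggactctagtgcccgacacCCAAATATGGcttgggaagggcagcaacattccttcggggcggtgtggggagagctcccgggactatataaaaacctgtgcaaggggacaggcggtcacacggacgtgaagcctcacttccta
Actc1: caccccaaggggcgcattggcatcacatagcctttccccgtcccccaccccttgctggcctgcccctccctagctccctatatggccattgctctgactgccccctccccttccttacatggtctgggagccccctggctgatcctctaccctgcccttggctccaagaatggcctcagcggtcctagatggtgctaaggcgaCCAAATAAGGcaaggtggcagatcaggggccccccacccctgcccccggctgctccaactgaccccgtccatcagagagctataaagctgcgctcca
The CArG box begins 73 bases before the start in Acta1 and 47 bases before it in Actc1. Actc1 minus Acta1, centred on wildtype, was −0.19, −0.23, −0.12 and −0.66 in Snf2h cKO eyes and −0.17, −0.08, 0.24 and 0.01 in wildtype. Brg1 cKO eyes gave 0.10, 0.25 and 0.03, and their wildtypes −0.11, −0.04 and 0.14. The groups overlapped in both experiments. Acta1 itself differed from wildtype by 0.17 ± 0.22 in Snf2h cKO and 0.11 ± 0.33 in Brg1 cKO eyes, and Actc1 by −0.13 ± 0.18 and 0.24 ± 0.36.

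Of the 39 genes, 33 had promoter windows in the RefSeq table, 40 windows in all, with several for Ldb3, Mb, Myh7, Pvalb, Tnni1 and Tnnt2. No window was used for Actn3, Chrnd, Tnni2, Tcap, Myod1 and Tnnt3. E boxes (CANNTG) were found in 82.5% of the 40 windows and in 72.3% of the 32851 promoters of the table. The form CAGCTG, which is contained in the E box count, was in 42.5% against 16.3%. M-CAT elements (CATTCC on either strand) were in 22.5% against 14.7%, MEF2 sites in 12.5% against 3.19% and CArG boxes in 12.5% against 1.63%. Windows of 1 gene overlap each other in part, and these shares describe letters only.

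Myosin heavy chains showed the fetal to adult balance of the tissue. Myh3 (embryonic) and Myh8 (perinatal) are the fetal forms, Myh1 and Myh2 the adult fast forms and Myh7 the slow form. Myh3 read 10.29 to 11.35 in Snf2h wildtype, 10.79 to 10.96 in Snf2h cKO, 10.45 to 11.99 in Brg1 wildtype and 10.54 to 11.94 in Brg1 cKO eyes. Myh8 gave 10.34 to 11.23, 10.77 to 11.09, 10.13 to 11.20 and 9.84 to 11.59 in the same order of groups. None of the 5 heavy chain genes had non-overlapping groups in either experiment, and their changes ranged from −0.40 for Myh2 to 0.19 for Myh8 in Snf2h cKO and from 0.01 for Myh2 to 0.33 for Myh1 in Brg1 cKO eyes.

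Myh1 varied most between eyes. It read 7.47, 6.63, 8.57 and 5.90 in Snf2h wildtype and 6.84, 6.71, 6.96 and 8.02 in Snf2h cKO eyes. Brg1 wildtype eyes gave 4.94, 5.44 and 7.41 and Brg1 cKO eyes 4.96, 7.81 and 6.01. Myosin heavy chain genes are near-identical in sequence, and the probe set for Myh1 is of a kind that can also bind other transcripts, so its assignment is uncertain. Myh3 minus Myh1 was −1.57 to 1.30 in Snf2h wildtype eyes after centring, and −0.70 to 0.44 in Snf2h cKO eyes. In Brg1 cKO eyes it was 0.46, −0.995 and 0.34, lowest in the eye with the most muscle signal, and in Brg1 wildtype eyes 0.39, 0.15 and −0.54, likewise lowest in the eye with the highest muscle level. Myh8 minus Myh1 was also lowest in these eyes of each group, at −0.80 in Brg1 cKO 2 and −0.78 in Brg1 wildtype 3. Myh8 minus Myh2, which does not use the Myh1 probe set, was highest in Brg1 cKO 2 (−0.12, 0.65 and 0.09 in cKO 1 to 3) and lowest in Brg1 wildtype 3 (0.50, 0.04 and −0.54 in wildtype 1 to 3).

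Among myosin light chains, Myl4 (the fetal and atrial essential chain) and Myl1 (the fast adult one) were compared in the same way. Myl4 read 11.54, 10.81, 9.06 and 12.01 in Snf2h wildtype eyes and 11.61, 11.57, 11.43 and 11.88 in Snf2h cKO eyes, a change of 0.77 ± 0.53 (SE). A second Myl4 probe set, dimmer at a mean log2 level of 4.20, went the other way in Snf2h cKO eyes, at −0.74 ± 0.21 (SE). Myl4 minus Myl1 was 0.44, 0.06, −1.64 and 1.14 in wildtype and 0.90, 0.88, 0.39 and 0.995 in Snf2h cKO eyes, and wildtype 4 exceeded all of the knockout eyes. In the Brg1 experiment the difference stayed within −0.10 to 0.05 in wildtype and −0.19 to 0.14 in cKO eyes. Mylpf, the fast regulatory light chain, differed from wildtype by 0.37 ± 0.18 in Snf2h cKO and 0.01 ± 0.32 in Brg1 cKO eyes, and Myom1, which encodes the M band protein myomesin, by 0.25 ± 0.29 and 0.26 ± 0.57.

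**Figure D5:**
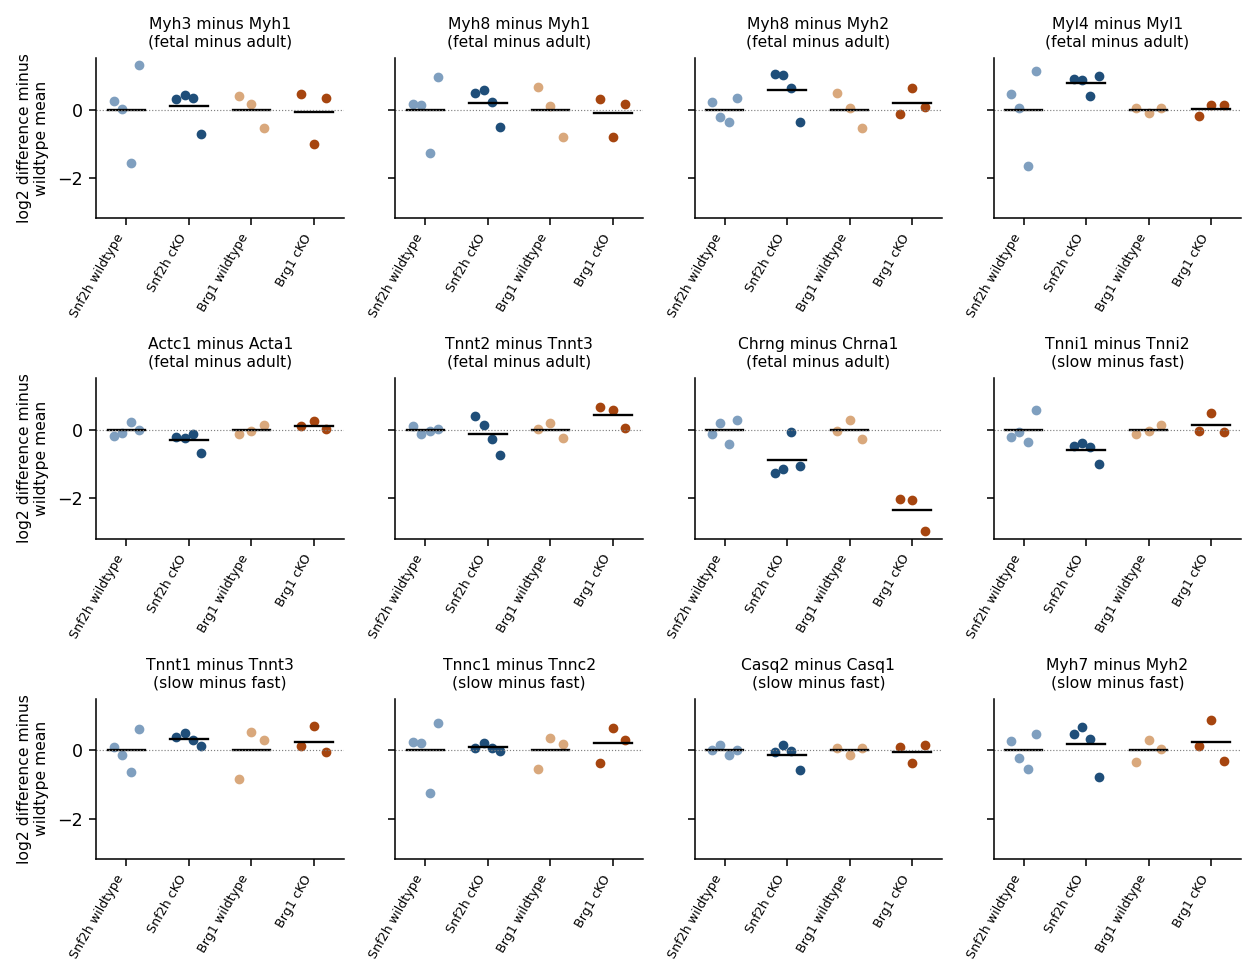
Difference in log2 intensity within 7 pairs labelled fetal minus adult and 5 labelled slow minus fast, centred on the wildtype mean of each experiment, by group (points are arrays, bars are group means). Chrna1 belongs to both the fetal and the adult receptor, so Chrng minus Chrna1 sets a fetal subunit against a shared one. The groups do not overlap for Chrng minus Chrna1 in the Brg1 experiment and for Tnni1 minus Tnni2 in the Snf2h experiment, both lower in the knockout, and overlap in all other comparisons shown. Among single genes, 6.25% of all genes were lower without overlap in Brg1 cKO and 4.81% in Snf2h cKO eyes. No such share was computed for pairs of genes, so these separations are descriptions.

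Z disc genes differed in opposite directions in Snf2h cKO eyes. Actn2, which encodes the alpha-actinin that crosslinks actin at the Z disc, read 9.37, 8.83, 9.95 and 8.95 in Snf2h wildtype eyes. It read 8.59, 8.43, 8.30 and 8.61 in Snf2h cKO eyes, all below the lowest wildtype eye (change −0.79 ± 0.23 SE, 1.73-fold lower, adjusted p = 0.195 by limma). Its fast fibre relative Actn3 differed from wildtype by −0.40 ± 0.28. Tcap, which encodes telethonin and joins titin to the Z disc, read 8.40, 7.46, 7.06 and 8.16 in wildtype and 8.66, 8.81, 8.29 and 8.95 in cKO eyes. That change of 0.91 ± 0.29 (SE, 1.88-fold, adjusted p = 0.205 by limma) was the largest positive value among the 39 genes, and only wildtype 1 reached into the knockout range. In Brg1 cKO eyes Actn2 differed from wildtype by 0.43 ± 0.45 and Tcap by 0.27 ± 0.57, and the groups overlapped. Ttn (titin), Ldb3 (a Z disc adaptor) and Des (desmin) differed from wildtype by −0.26, −0.30 and 0.21 in Snf2h cKO and by 0.60, 0.22 and 0.59 in Brg1 cKO eyes.

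Genes of calcium handling gave 1 named member per experiment. Casq2, the slow and cardiac calsequestrin that stores calcium in the sarcoplasmic reticulum, read 9.62, 9.19, 9.63 and 9.44 in Snf2h wildtype and 8.82, 8.90, 8.91 and 9.37 in Snf2h cKO eyes. The change was −0.47 ± 0.17 (SE, adjusted p = 0.230 by limma), and cKO 4, the knockout eye with the highest muscle level, lay within the wildtype range. Casq1, the fast form, differed from wildtype by −0.35 ± 0.27, and Casq2 minus Casq1 overlapped in both experiments. Ryr1, the calcium release channel, read 9.20, 8.76 and 9.93 in Brg1 wildtype and 9.81, 10.97 and 9.86 in Brg1 cKO eyes. The change was 0.91 ± 0.40 (SE, adjusted p = 0.560 by limma), with cKO 1 and 3 just under the highest wildtype eye, and in Snf2h cKO eyes it was −0.03 ± 0.22. Atp2a1 (the fast calcium pump), Cav3 (the caveolin of muscle) and Pvalb (the calcium buffer parvalbumin) differed from wildtype by −0.26, 0.53 and −0.30 in Snf2h cKO and by 0.63, 0.43 and 0.26 in Brg1 cKO eyes, with overlapping groups.

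The myogenic transcription factors MyoD and myogenin switch on muscle genes in myoblasts. Myod1 read 6.80, 6.82 and 6.73 in Brg1 wildtype and 6.46, 8.27 and 7.87 in Brg1 cKO eyes, a change of 0.75 ± 0.43 (SE, adjusted p = 0.710 by limma). Eye 1 lay below all wildtype eyes, so the groups overlapped. In Snf2h cKO eyes the change was −0.39 ± 0.22, with readings of 4.95, 5.37, 5.60 and 5.81 against 6.18, 5.48, 6.03 and 5.61 in wildtype. Myog differed from wildtype by 0.63 ± 0.35 in Snf2h cKO and 0.16 ± 0.65 in Brg1 cKO eyes. Its level differed far more between the experiments: Snf2h wildtype eyes read 6.46, 5.18, 4.59 and 5.87 and Brg1 wildtype eyes 9.04, 8.78 and 9.71. Ldb3 lay at 7.89 to 9.19 and 9.94 to 10.45 in these wildtypes. Strain and experiment cannot be told apart here, and whether all arrays were normalised together is not stated.

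The 3 genes of energy supply had overlapping groups throughout. Ckm (muscle creatine kinase) differed from wildtype by 0.43 ± 0.22 in Snf2h cKO and 0.11 ± 0.51 in Brg1 cKO eyes. Eno3 (the muscle enolase) differed from wildtype by −0.06 ± 0.13 and 0.57 ± 0.35, and Mb (myoglobin) by 0.14 ± 0.27 and 0.20 ± 0.49.

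A wider list of 72 other skeletal muscle genes, of which 57 were measured, gave 0 calls by limma in each contrast. At an unadjusted p under 0.05, 2 were higher and 6 lower in Snf2h cKO eyes, where 8.31% and 8.62% of all genes were, with a median change of −0.16 (−0.05 over all genes). Capn3, a protease of muscle that lens fibres also make, was lower by a log2 change of −1.49 ± 0.31 (adjusted p = 0.137 by limma). Chrne, the adult epsilon receptor subunit, was at −0.57 ± 0.17 and the myogenic factor Myf5 at −0.55 ± 0.17, and on the higher side Trim54 was at 0.68 ± 0.15 and Fabp3 at 0.67 ± 0.30. In Brg1 cKO eyes 5 were higher and 2 lower, where 5.45% and 3.77% of all genes were, with a median of 0.26 (0.02 over all genes). Tmod4 (a cap of thin filaments) was at 1.31 ± 0.38, Dysf (dysferlin, of membrane repair) at 0.88 ± 0.26 and Smyd1 at 1.01 ± 0.31. Their Brg1 wildtype means of 6.07, 6.41 and 4.10 also lay below that level. Fbxo32, a ubiquitin ligase of muscle wasting, was at −1.26 ± 0.35 and Capn3 at −1.86 ± 0.55. The difference between the knockout effects had its smallest p in Fbxo32 (−1.63 ± 0.38, adjusted p = 0.0734 by limma).

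Genes outside the muscle lists followed the muscle level from eye to eye. With each value centred on its group mean, the 12 genes with the highest correlation over the 14 arrays were Dhrs7 (r = 0.99), Ddc (0.97), Cmbl (0.97), Tm4sf1 (0.97), Tbx15 (0.96), Cd34 (0.96), Timp2 (0.96), Csrp3 (0.95), Plek (0.95), Lgals9 (0.95), Myoz1 (0.95) and Stbd1 (0.94). Csrp3 and Myoz1, which encode muscle LIM protein and a Z disc protein, were the 2 of them on the wider muscle list. Cd34 marks blood vessel and stem cells, and Timp2 encodes an inhibitor of matrix proteases. The points share arrays, and Brg1 cKO 1 and Brg1 cKO 2 lie farthest out; without them the 12 correlations were between 0.89 and 0.97.

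Whole marker lists followed it to different degrees. The median correlation with the muscle level was 0.76 over 57 other muscle genes (44 of them above 0.5), 0.85 over 7 endothelial, 0.69 over 10 smooth muscle and 0.62 over 14 connective tissue genes. It was −0.60 over 9 retina genes and −0.05 over all genes outside the 39. Each muscle gene correlated with the mean of the other 38 at 0.56 (Myl4) to 0.96 (Tnni2), with a median of 0.83. In Brg1 cKO eyes 1 to 3 the retina genes lay at 0.50, −0.32 and 0.15 and the connective tissue genes at −0.28, 0.50 and 0.16 relative to wildtype. The connective tissue genes therefore had the order of the muscle levels and the retina genes the reverse. In Snf2h cKO eyes the retina genes were at 0.43 to 0.56 and the connective tissue genes at −0.47 to −0.24, while the muscle level was not outside the wildtype range. The part of eye composition in the muscle values was not tested.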

How the data were processed

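Mouse eye RNA of 14 samples in 4 groups was measured on single-colour Affymetrix arrays. The deposited value is a linear intensity for each probe set. The submitters' processing notes name RMA; its version, and whether both experiments were processed together, are not given in the sources used here. The log2 of the deposited intensity was taken with no further scaling. Of 22690 probe sets, 64 were controls, 20380 were annotated to 1 gene, and the brightest of these on average represented each of 12393 genes. Nothing says which values were above background, so dim probe sets were kept; their changes are compressed.

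Each knockout was compared with its own wildtype by limma 3.58.1 (lmFit, eBayes) in R 4.3.3, two-sided, with Benjamini-Hochberg adjustment over all genes and a threshold of 0.05, and the difference of the effects in a model of 4 group means. Errors of changes are moderated standard errors. The script was tested on simulated data. Test statistics are given for muscle genes called, or among the 4 smallest p per direction and contrast, isoform pairs by level, up to 3 other muscle genes per direction and contrast, up to 2 genes per marker list and the 12 genes most like the muscle level. The members and lists were chosen with earlier results of these data known, so they are no independent support. Array symbols come from the platform annotation, which names no build; promoters come from RefSeq. Protein sequences were not used here. Alternatives were quantile normalisation, a filter on dim probe sets, the mean of all probe sets, array weights, trended robust eBayes, 1 fit over all arrays, the replicate number as a block, averaging Snf2h cKO 1 and 2, and leaving out each array.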

Additional observations from a re-analysis of the deposited data

Results flagged for a closer look

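Values of 1 array that stood apart from the other 3 of its group were looked for among the muscle genes, the muscle level and the isoform differences in the groups of 4 arrays. This gave 7 of 104, where chance gives about 1 in 20. Snf2h cKO 4 held 5 of them: its log2 level was 11.83 for Tnnt3 (11.33 to 11.41 in the other 3 knockout arrays), 12.04 for Acta1 (11.49 to 11.55), 8.94 for Casq1 (7.75 to 7.93) and 9.37 for Casq2 (8.82 to 8.91), and its centred Myh3 minus Myh1 was −0.70 (0.31 to 0.44). Since 2 of those other arrays were near-identical, gaps between the rest look wider than they would among 4 separate samples. In Snf2h cKO 3, Chrng was at 7.63 (7.29 to 7.32 in the others) and the centred Chrng minus Chrna1 at −0.071 (−1.25 to −1.05).

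Actc1 minus Acta1 lay below the wildtype mean in all 4 Snf2h cKO eyes (mean −0.30) and above it in all 3 Brg1 cKO eyes (mean 0.13), a difference of 0.43 on the log2 scale between the effects. This difference was not tested.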

How the results depend on the processing

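The count of called muscle genes was 0 in the Snf2h comparison under every setting run except array weights, which called Chrng (1 gene, −0.90, adjusted p = 0.0300 by limma). It was 0 to 1 in the Brg1 comparison and 0 to 1 in the difference of the effects when 1 array was left out, and 0 under their other settings. The median change of the muscle genes lay between −0.07 and 0.11 (Snf2h) and between −0.06 and 0.76 (Brg1) with 1 array left out.

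Counts over all genes moved more. In the Snf2h comparison 2 genes became 0 with replicates 1 and 2 of the knockout averaged, 230 with array weights, 5 without dim probe sets, 4 in 1 fit over all arrays, 1 with quantile normalisation of all arrays and 7 with trended robust eBayes, and 0 to 60 with 1 array left out. In the Brg1 comparison 135 genes became 209 with array weights, 19 without dim probe sets and 260 in 1 fit over all arrays, and 26 to 215 with 1 array left out. In the difference of the effects 115 became 174 with array weights and 13 without dim probe sets, and 68 to 162 with 1 array left out. The cause of these moves was not tested, beyond fewer genes or arrays where some were left out.

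Replicate numbers gave no sign of pairing between samples. Deviations of same-numbered arrays correlated between −0.27 and 0.10, and those of differently numbered arrays between −0.30 and 0.29. So few arrays per group cannot exclude pairing. With the replicate number as a block, 0 muscle genes were called in each contrast, and over all genes 0 in the Snf2h and 49 in the Brg1 comparison.

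Reversed signs were those of Tpm2, −0.15 in Snf2h cKO and 0.42 in the difference with the mean of all probe sets, and, with 1 array left out, of Tnni2 in Brg1 cKO (−0.54 to 0.53) and of Tnni2, Mylpf and Tpm2 in the difference (−1.03 to 0.037, −0.59 to 0.017 and −0.60 to 0.019). Of 104 isoform differences under settings other than leaving out an array, 1 moved by over the SD between replicates. For 10 muscle genes there were 16 probe sets besides the ones used. Their change had the same sign as the one used for 9 of 16 in Snf2h cKO, 12 of 16 in Brg1 cKO and 8 of 16 in the difference.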
